A study of Mus musculus with 12 samples.

Results

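Of 76883 DNase I hypersensitive sites (DHSs, short stretches of accessible chromatin) in mouse progenitors and early T cell precursors, 317 (0.412%) had a peak in every LSK and DN1 library and in no DN2a, DN2b or IgG library. The sites were selected on the peak scores themselves. In each of 12 lists the highest-scoring peaks on chromosomes 1 to 19 and X were kept, as many as the shortest list holds, and kept peaks that overlapped by at least 1 bp were merged. The pattern, the scores behind it and the order of the libraries are therefore a description of the choice and carry no test. Of the sites, 3 were on the X chromosome. The set depends on list length, since all deposited peaks gave 686 sites by the same pattern, which took in 58 of the 317, and on single libraries, since 487 sites were found without DN1 replicate 2.

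All cells came from C57BL/6J mice. The 3 LSK libraries were made from fresh marrow cells with SCA1 and KIT but no lineage markers, a mixture of stem cells and early progenitors. DN1, DN2a and DN2b (2 libraries each) are consecutive stages of the early T cell precursor, and were sorted after LSK cells had grown on the immobilized Notch ligand Delta1ext-IgG. IL-7 was in the medium for the 2 DN2 stages but not for DN1, according to the methods, so stage and IL-7 cannot be told apart between DN1 and DN2. The 3 IgG libraries came from LSK cells cultured on human IgG, with no Notch ligand. The DN populations are cultured equivalents of thymic precursors, and the labels do not say which libraries share a marrow isolate or came from separate cultures.

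When Notch is engaged, a marrow progenitor passes through the DN1 stage, where it can still give rise to other blood lineages, and through DN2a, and becomes committed to the T lineage by DN2b. PU.1, an ETS-family factor of myeloid cells and progenitors, is known to remain on in DN1 and DN2a cells and to be turned off at commitment, and stem-cell factors such as MEIS1, HOX proteins and GATA2 are turned off over the same steps. A DHS away from a promoter usually marks an enhancer or another regulatory element, which often acts on one of the genes nearby, though not always on the nearest.

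The central 150 bases of 7 of the 317 sites are shown because their scores, their letters or their nearest genes recur in the results. They are the + strand of GRCm38 (mm10) in RefSeq's sequence, at chr8:60804937-60805086 (Hpf1), chr8:46849007-46849156 and chr8:46819047-46819196 (Irf2), chr8:94967057-94967206 (Adgrg1), chr4:154531487-154531636 (Prdm16), chr1:69606967-69607116 (Ikzf2) and chr13:37356667-37356816 (Ly86). Each is named for the nearest start of a protein-coding gene. Capitals mark, on either strand, GAGGAAG for PU.1, AGATAA for GATA factors, TGTGGT or TGCGGT for RUNX factors, and TGATTNAT (N is any base) for HOX proteins with their partner PBX.
Hpf1 site: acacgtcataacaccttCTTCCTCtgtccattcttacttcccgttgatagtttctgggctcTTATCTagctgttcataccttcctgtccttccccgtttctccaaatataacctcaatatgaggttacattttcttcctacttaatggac
Irf2 site beyond the gene: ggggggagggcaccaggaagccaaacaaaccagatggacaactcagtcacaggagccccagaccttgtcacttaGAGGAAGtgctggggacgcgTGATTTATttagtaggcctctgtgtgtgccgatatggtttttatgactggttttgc
Irf2 intron site: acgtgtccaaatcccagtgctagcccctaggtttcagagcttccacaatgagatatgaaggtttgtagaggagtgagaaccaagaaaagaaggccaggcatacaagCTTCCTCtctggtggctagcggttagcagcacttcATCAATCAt
Adgrg1 site: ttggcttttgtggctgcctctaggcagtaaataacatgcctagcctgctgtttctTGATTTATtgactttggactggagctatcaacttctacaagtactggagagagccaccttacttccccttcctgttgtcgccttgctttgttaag
Prdm16 site: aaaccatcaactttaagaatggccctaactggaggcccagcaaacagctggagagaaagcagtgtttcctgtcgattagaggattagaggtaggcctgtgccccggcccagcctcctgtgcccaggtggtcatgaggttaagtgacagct
Ikzf2 site: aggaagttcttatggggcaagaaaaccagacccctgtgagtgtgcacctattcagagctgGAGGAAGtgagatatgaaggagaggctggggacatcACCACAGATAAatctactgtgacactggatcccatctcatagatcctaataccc
Ly86 site: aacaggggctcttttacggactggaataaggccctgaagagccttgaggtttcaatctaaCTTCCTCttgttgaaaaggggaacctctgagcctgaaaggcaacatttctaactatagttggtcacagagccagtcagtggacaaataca
The Prdm16 site holds none of the marked letters, and the Ikzf2 site holds those of PU.1, GATA and RUNX, the last 2 overlapping each other. Because letters were among the reasons for printing a site, the 7 do not show how often the letters occur in the 317. The high-scoring Ube2e3 and Sox5 sites described below, not printed, hold none of them.

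The labels of the cells were checked by peaks within 1 kb of marker gene starts. Il2ra, Tcf7 and Cd3e, which encode the CD25 receptor chain, the T cell factor TCF1 and a chain of the T cell receptor complex, had such a peak in each of the 4 DN2 libraries and nowhere else. Bcl11b, a T lineage commitment factor, had one from DN1 onwards. Kit, the receptor of stem cell factor, had one in every library, but Gata2, Hoxa9 and Mecom, other stem-cell genes, and Gata3, a T lineage factor, had none in any. Rag1 had one in DN1 replicate 2, DN2a replicate 2 and both DN2b libraries, and Ptcra had none in any. T lineage markers with a kept peak numbered 0 of 7 in LSK and IgG, 1 and 2 in DN1 and 4 or 5 in DN2. Stem and progenitor markers numbered 4 of 8 in LSK and DN1, 3 in DN2 and 2 or 3 in IgG. NK and innate lymphoid markers numbered 1 or 2 of 5 in LSK, 1 in DN1, 1 to 3 in DN2 and 2 in IgG. Myeloid markers numbered 2 of 6 in LSK and DN libraries and 3 or 4 in IgG. Mast, erythroid and megakaryocyte markers numbered 2 or 3 of 6 in LSK, 3 in DN1 and DN2a, 1 in DN2b and 0 or 1 in IgG, with Itga2b and Pf4 present through DN2a and absent from DN2b, and their part in the difference between DN2a and DN2b at the sites was not tested. Of 4 B lineage markers, Ebf1 alone had one in any library, and it did so in the 3 LSK libraries, DN2b replicate 1 and IgG replicate 3. Deposited lists held 32977 to 111657 peaks, and their read depth is unknown.

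Among kept peaks the chosen sites stood near the middle in LSK and lower in DN1. The order of LSK and DN1 turned on the measure. In LSK the median score percentile of the sites, counted within each library's whole deposited list, was 65.0, 68.8 and 71.6 (68.5 ± 3.33, SD, n = 3). In DN1 it was 76.5 and 69.5 (73.0 ± 4.95, SD, n = 2). The DN1 lists are longer, and the same limit stands in them at percentile 65.5 and 53.4 rather than between 38.6 and 46.5. By rank, counted from the highest score in lists of unequal length, the median site stood at place 18620, 16709 and 17726 in LSK and at 22807 and 21355 in DN1, further down in DN1 where the percentile was higher on average. Both measures were part of the choice, and neither shows a change from LSK to DN1. The median over all DHSs kept in a library was between 16340 and 16429. In every LSK library 124 sites ranked above their place in both DN1 libraries, 38 ranked higher in both DN1 libraries than in any LSK library, and for 155 the ranks overlapped. Few sites were among the highest-scoring peaks of their list, with 7, 14 and 27 in the upper 10% of the LSK lists and 9 and 1 in that of the DN1 lists.

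At most of the sites at least 1 DN2 library still had a peak, ranked below those kept. This held for 256 of 317 (80.8%, 95% Wilson interval 76.1% to 84.7%, counting error only), and for 43.5% of all DHSs without a kept DN2 peak. No DN2 list had a peak at the other 61 (19.2%), which does not show that they were closed, since depth is unknown. Neither a DN2 nor an IgG list had one at 58 (18.3%), while 71 had one in a single DN2 list, 68 in 2, 67 in 3 and 50 (15.8%) in all 4. Of all DHSs without a kept DN2 peak, 13.5% had one in a single DN2 list, 11% in 2, 9.94% in 3 and 9.05% in all 4. All 4 lists had one at 12.2% of LSK-only DHSs and 6.14% of those shared by LSK and IgG, and 47.96% of LSK-only DHSs had none in any DN2 or IgG list. The score ranks peaks within a list only, so a lower rank is what these lists show. In a bulk library a lower-ranked peak can mean fewer cells with the site open or a less accessible site in each cell, and these cannot be told apart.

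The lower-ranked peaks were spread unevenly over libraries. DN2a replicate 1 had one at 207 sites (65.3%, against 38.4% of all DHSs that lacked a kept peak in that library) and DN2a replicate 2 at 118 (37.2%, against 23.3%). DN2b replicate 1 had one at 90 sites (28.4%, against 28.8%) and DN2b replicate 2 at 193 (60.9%, against 49.7%). The DN2b replicates differed as their lists did, with 61484 and 111582 peaks. Where such peaks were present they ranked low, with median percentiles of 32.6 and 27.8 in DN2a and 25.6 and 45.6 in DN2b. IgG lists barely reached below the limit. IgG replicate 1 had a lower-ranked peak at 10 sites (3.15%, against 5.22%), IgG replicate 3 at 23 (7.26%, against 5.09%), and IgG replicate 2 at 0 (against 0%), since its whole list was kept. In any IgG list there was one at 29 sites (9.15%, against 4.27%), and absence from IgG thus rests on shorter lists than absence from DN2.

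**Figure D1:**
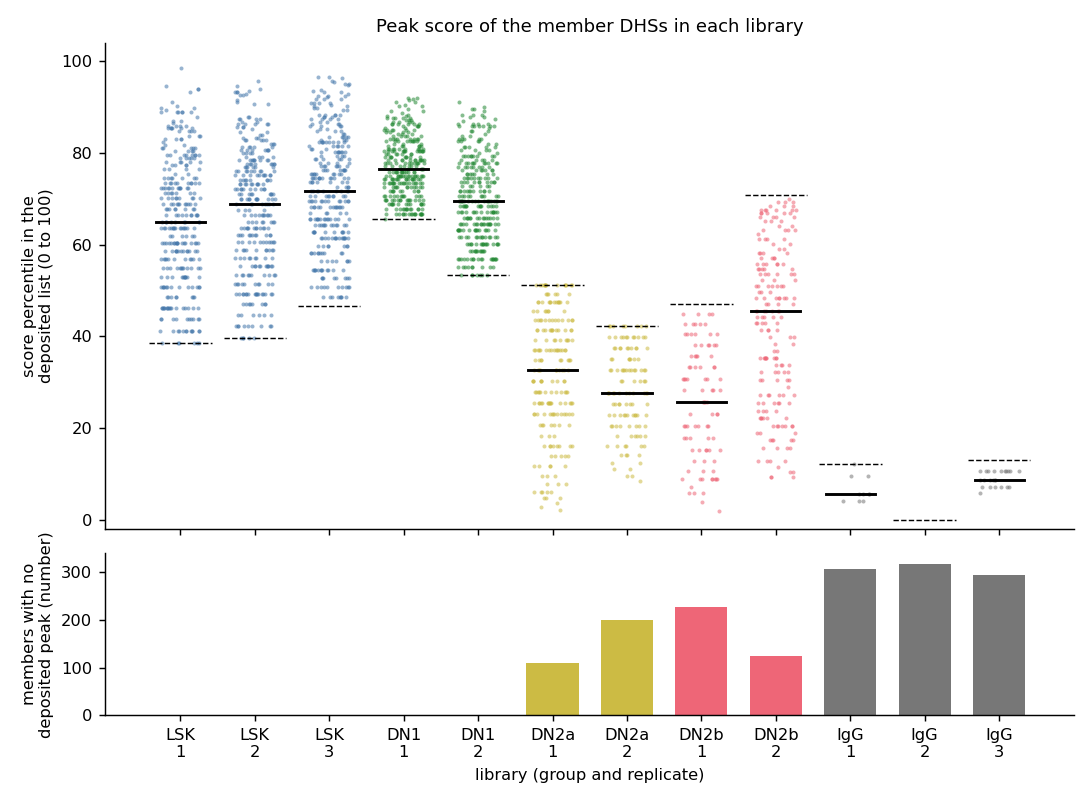
Upper panel, score percentile within the deposited list for each of the 317 sites with a peak in that library (points), the median (solid line) and the percentile at the limit of kept peaks (dashed line). Lower panel, number of sites with no deposited peak, from 110 in DN2a replicate 1 to 317 in IgG replicate 2, with none in LSK and DN1 by the rule.

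DN2a lists held more of the sites below the limit than DN2b lists at equal length. A second limit, chosen after the data were seen, took the 53869 highest peaks of each list, the length of the shortest list outside IgG. Within it, DN2a replicate 1 had a peak at 165 sites (52.1%, against 29.7% of all DHSs without a kept peak there) and DN2a replicate 2 at 118 (37.2%, against 22.7%). DN2b replicate 1 had one at 72 (22.7%, against 24.6%) and DN2b replicate 2 at 68 (21.5%, against 27.7%). The DN2b replicates, far apart on their whole lists, were close here, and both lay below both DN2a replicates. A DN2a but no DN2b library had a peak at 115 sites (36.3%), a DN2b but no DN2a library at 22 (6.94%), and no DN2 library at 100 (31.5%). Over all DHSs without a kept DN2 peak these shares were 12.6%, 5.26% and 68.2%, so DN2a peaks outnumbered DN2b peaks there too. No test was made, because the lists had chosen the sites. Among the 1420 DHSs of LSK libraries alone, 10.7% had a peak within this limit in DN2a but not DN2b, and 6.197% in DN2b but not DN2a. Among the 342 of LSK and IgG the shares were 14.04% and 4.97%.

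**Figure D2:**
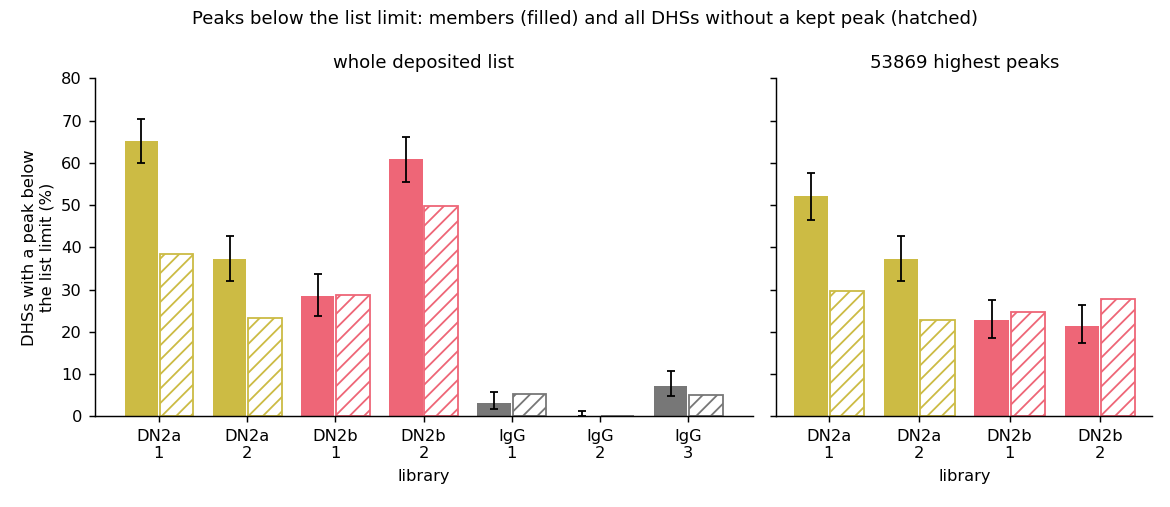
Share of the 317 sites with a peak below the list limit (filled bars, 95% Wilson intervals) beside the share of all DHSs without a kept peak in that library (hatched bars), over whole lists on the left and within 53869 peaks on the right. On the right the DN2a bars stand at 52.1% and 37.2% and the DN2b bars at 22.7% and 21.5%.

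The 61 sites without any DN2 peak ranked higher in LSK than the rest. Their median ranks averaged 15240 in LSK and 21174 in DN1, against 18328 and 22451 for the other 256. Promoters made up 4.92% and 5.47% of the 2 parts, and the median distance to a gene start was 32.6 and 36.4 kb. Their nearest gene starts included those of Irf2, Spry1, Nr4a3, Tlr4 and Ccr7, which were picked after the values were seen. The Nr4a3 start was 202.8 kb and the Tlr4 start 596.6 kb from its site. Irf2 encodes a factor that restrains interferon-response genes, Spry1 an inhibitor of receptor tyrosine kinase signalling, Nr4a3 an orphan nuclear receptor, Tlr4 the receptor of bacterial lipopolysaccharide and Ccr7 a chemokine receptor of lymphocytes and dendritic cells.

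The sites lay mostly away from promoters. A midpoint within 1 kb of a protein-coding gene start was found for 17 of 317 (5.36%, 3.37% to 8.42%), against 21.5% of all DHSs, 10.9% of the 1420 LSK-only DHSs, 11.99% of the 342 shared by LSK and IgG but by no Delta1 library, and 12.4% of the 1503 shared by LSK and all Delta1 libraries but by no IgG library. The share of the sites was 3.15% within 500 bp, and 8.20% within 2.5 kb or when every transcript start was counted. Their median distance to the nearest start was 36.4 kb (quartiles 11.7 and 92.5 kb), against 14.8 kb over all DHSs, and 70 (22.1%) were more than 100 kb away, against 11.99%. The LSK-only DHSs were nearly as far, with a median of 28.8 kb and 21.5% over 100 kb. By the annotation 144 midpoints (45.4%) were in introns and 125 (39.4%) between genes, with 22 in UTRs or other exons, 4 in coding exons, 18 in introns and 4 in exons of non-coding genes. GC content was a median of 49.3% against 51.3% over all DHSs, and 49.3% in both once promoters were left out.

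Beside DHSs that shared their presence in LSK and DN1, the lack of promoters was wider. Of the 18718 other DHSs with a peak in all LSK and DN1 libraries, 46.1% were at promoters, with a median distance of 1.85 kb. Most of these 18718 were not particular to progenitors, since 10893 of them had a peak in all 12 libraries. Sets with a like pattern were nearer to the 317. The 153 DHSs that were also present in both DN2a libraries but in no DN2b or IgG library had 3.27% at promoters (1.40% to 7.42%), and the 341 present in all IgG libraries but in no DN2 library had 8.21% (5.74% to 11.6%). These further sets were added after the data were seen, and their intervals overlap that of the 317.

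The 20 sites with the highest median percentile over LSK and DN1 had no promoter among them. Inside genes lay 11, and 9 were over 50 kb from the nearest start. Percentiles follow list length, so LSK and DN1 were set against each other by rank, and 15 of the 20 ranked higher in every LSK library than in any DN1 library, which the choice by a median over 3 LSK and 2 DN1 values favours. The first, 85.4 kb upstream of Hpf1, which encodes a partner of PARP1 in DNA repair, stood at percentile 98.6, 95.7 and 95.6 in LSK and at 78.5 and 80.6 in DN1. It had a peak at percentile 2.19 in DN2a replicate 1 and none in any other DN2 or IgG list. Its ranks were 760, 2321 and 2706 in LSK and 20679 and 13400 in DN1, and the DN2 trace was at the foot of its list. A site 26.1 kb upstream of Ube2e3, a ubiquitin-conjugating enzyme, stood at 94.0, 94.6 and 96.4 in LSK and 92.0 and 85.8 in DN1. Its ranks were 3189, 2901 and 2192 in LSK and 7549 and 9698 in DN1, without overlap. It fell to 16.1 and 11.0 in DN2a, and was absent from both DN2b lists and from IgG except at percentile 7.20 in replicate 3.

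A pair of sites had their nearest gene start at Irf2, whose product restrains interferon signalling and is known to help keep stem cells quiescent. The site 109 kb downstream of its start, past the gene, stood at 94.6, 93.2 and 96.6 in LSK and at 78.5 and 81.3 in DN1, with no deposited peak in any DN2 or IgG list. The site in its intron, 30.0 kb nearer, stood at 86.9, 92.5 and 93.5 in LSK and at 91.4 and 91.1 in DN1, with a peak at percentile 4.71 in DN2a replicate 1 alone. Both sites thus left the DN2 lists nearly or wholly, and the ranks of LSK and DN1 overlapped only at the intron site. Both hold the PU.1 letters and the letters of HOX with PBX, in the sequences printed above.

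Genes of stem and progenitor cells were the nearest genes of several sites. Of 35 transcription factors listed for such cells, 5 (14.3%) were the nearest gene of a site, as were 3 of 30 surface and signalling genes (10%), against 308 of 21755 protein-coding genes (1.42%). Genes with many DHSs around them have more chances to be nearest, and the lists were chosen with earlier results known, so the counts are a description. Other lists gave 1 of 29 myeloid genes (Ly86), 1 of 25 mast, erythroid and megakaryocyte genes (Car2), 1 of 25 T lineage genes and Notch targets (Ets1), 0 of 25 B lineage and interferon genes and 0 of 20 NK, innate lymphoid and dendritic genes.

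Among the transcription factors, Prdm16, needed to maintain stem cells, had an intron site 105 kb downstream of its start. It stood at 86.4, 86.3 and 90.9 in LSK and at 85.4 and 89.6 in DN1, was close to the limit in DN2a at 51.3 and 39.98, and had no peak and one at 18.95 in DN2b. In DN2a replicate 1 the site tied with the lowest kept score and was left out by the order of ties, at rank 33065. LSK and DN1 overlapped by rank, and DN2a stood above DN2b. Meis1, a HOX cofactor of stem cells, had a site 135 kb into the gene at 60.4, 75.1 and 77.1 in LSK and 78.5 and 61.8 in DN1, with 1 DN2 peak, at 39.95 in DN2b replicate 2. Its own promoter had a kept peak in all 12 libraries. Ikzf2, which encodes the Ikaros relative Helios, had an intron site at 54.9, 68.8 and 68.3 in LSK and 75.01 and 53.4 in DN1. Nkx2-3, a homeobox gene, had a site 32.7 kb upstream at 72.4, 60.5 and 69.4 in LSK and 75.8 and 71.7 in DN1. For both of these sites the only DN2 peak was at 16.1 in DN2a replicate 1, and the ranks of LSK and DN1 overlapped at both.

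Surface genes gave a further group. Adgrg1, an adhesion receptor that marks stem cells, had a site 7.62 kb upstream at 88.9, 93.5 and 95.04 in LSK and 69.7 and 75.4 in DN1, with ranks that did not overlap, and at 45.5 in DN2a replicate 1 alone of the DN2 libraries. At the Cd34 promoter, 22 bp from the start of this progenitor surface marker, the values were 58.6, 75.1 and 52.7 in LSK and 76.5 and 74.6 in DN1. DN2a replicate 1 (27.9) and both DN2b libraries (30.8 and 39.95) had a lower-ranked peak there, and no IgG library did. Esam, an adhesion molecule of stem cells and endothelium, had a site 2.21 kb inside the gene at 68.9, 62.1 and 75.5 in LSK and 77.8 and 74.6 in DN1. It had no DN2a peak and stood at 28.2 and 57.0 in DN2b, the reverse of the order over all sites. LSK and DN1 overlapped by rank at Cd34 and Esam.

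Of the other listed genes, Ets1, an ETS factor of lymphoid cells, had an intron site 36.4 kb from its start at 83.6, 85.7 and 89.7 in LSK and 68.8 and 64.6 in DN1. Ly86, which encodes the MD-1 partner of the receptor RP105 on myeloid and B cells, had an intron site with the reverse order, at 54.9, 49.2 and 56.4 in LSK and 77.2 and 77.8 in DN1. Its ranks were 24500, 27917 and 27443 in LSK and 22184 and 15554 in DN1, which do not overlap, and no DN2 or IgG list had a peak there. The Ets1 site had lower peaks at 23.1 in DN2a replicate 1 and 44.2 in DN2b replicate 2.

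Of the 17 promoters, 14 had a lower-ranked DN2 peak. Zfp521, a zinc finger gene of progenitors, stood at 83, 74.2 and 84.7 in LSK, 75.01 and 71.7 in DN1, 27.9 in DN2a replicate 1 and 65.9 in DN2b replicate 2. Car2, a carbonic anhydrase gene of erythroid cells and osteoclasts, stood at 81.0, 78.5 and 82.3 in LSK and 75.8 and 58.6 in DN1, and had a peak in all DN2 lists, at 27.9 and 39.98 in DN2a and 42.7 and 47.0 in DN2b. H2-Ob, a subunit of the class II antigen-loading regulator, stood at 85.3, 80.6 and 89.3 in LSK, 80.4 and 77.8 in DN1, and 30.3, 32.6 and 48.4 in the DN2 lists that had it. All 3 ranked higher in LSK than in DN1 without overlap. Car2 alone of them was in all 4 DN2 lists, Zfp521 was missing from DN2a replicate 2 and DN2b replicate 1, and H2-Ob from DN2b replicate 1. The promoters of Depdc1b, a gene of dividing cells, and Spo11, the meiotic recombination nuclease, had no DN2 peak, with median percentiles of 73.4 and 73.2. Those of Pkd1l2, Cnrip1, Ccdc90b and Eya1 ranged from 51.4 to 86.7 in LSK and DN1 and had 1, 3, 4 and 2 DN2 peaks.

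**Figure D3:**
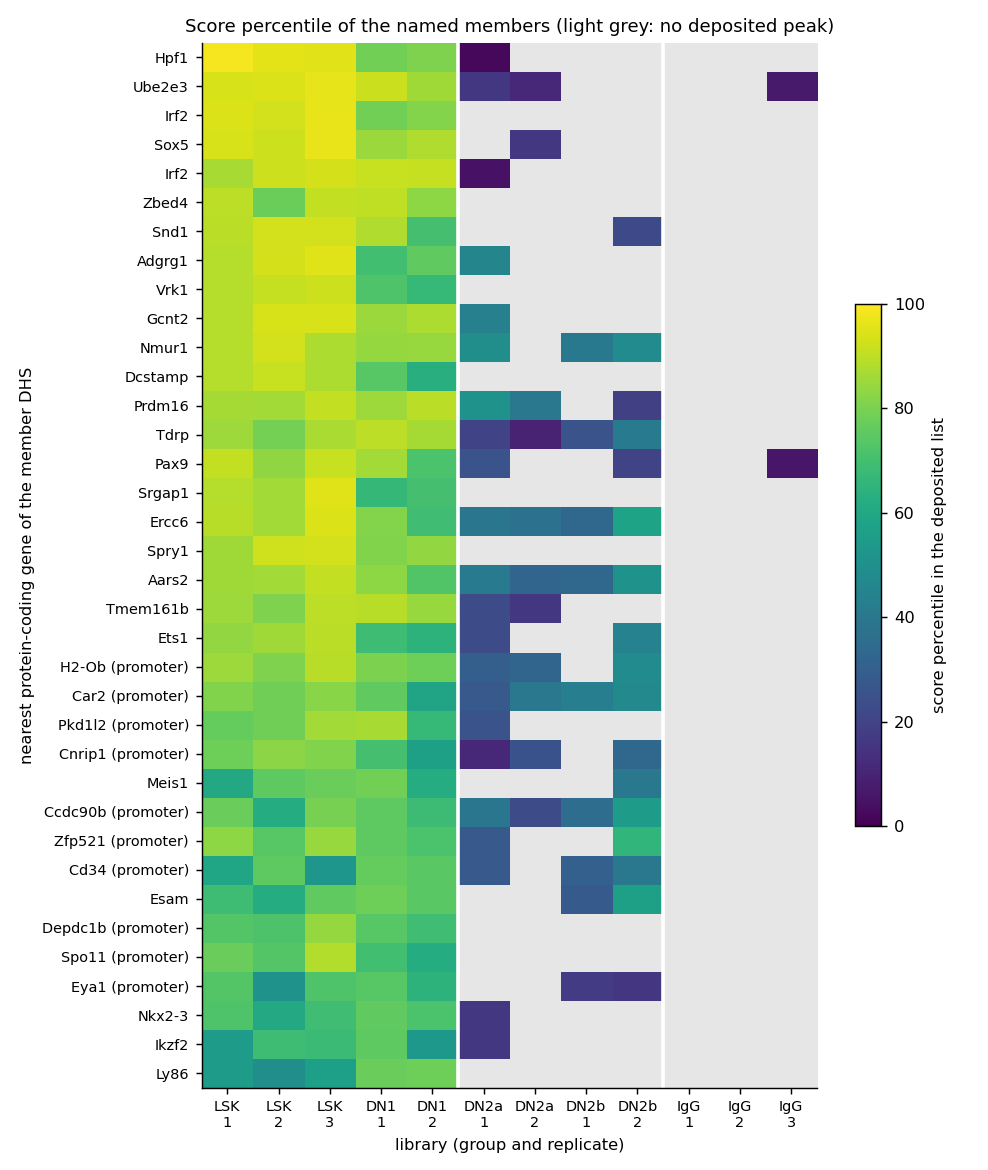
Score percentile within each deposited list for 36 named sites (one line each, by nearest gene, highest median first) in the 12 libraries, with light grey where the list has no peak. LSK and DN1 columns are filled throughout, DN2 columns in part, with the highest DN2 value at 65.9 (Zfp521, DN2b replicate 2), and IgG columns only at the Ube2e3 and Pax9 sites, at 7.20 and 5.99 in replicate 3.

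The remaining sites of the 20 varied in how many DN2 lists held them. The Sox5 intron site, 299 kb from the start of this developmental factor, stood at 94.0, 92.5 and 96.6 in LSK and 85.0 and 88.2 in DN1, with 1 DN2 peak at 16.1. Of the 20, 6 had no DN2 peak, namely the Irf2 site past the gene and those nearest to Zbed4, Vrk1, Dcstamp, Srgap1 and Spry1. A peak in all 4 lists was found at 3 (Tdrp, Ercc6 and Aars2). Ercc6 and Aars2, a transcription-coupled repair gene and a mitochondrial tRNA synthetase gene, were still at 58.1 and 51.0 in DN2b replicate 2. The other sites had their nearest gene starts at Snd1, Gcnt2, Nmur1, Pax9 and Tmem161b, the last 425.9 kb away.

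The 317 sites had 308 nearest genes, of which 9 had 2 sites and none had more. The closest pairs were 1.14 kb apart (Tmem161b), 2.64 kb (Dcstamp), 3.57 kb (Fsip1) and 4.54 kb (Gm9817), picked after their values were seen. Within 50 kb a site had a median of 5 other DHSs, against 8 over all DHSs and 5 over LSK-only DHSs, and 10 of the 317 sites had another of them in that window, as 47 of 1420 LSK-only DHSs and 1978 of all 76883 DHSs had one of the 317, a like share. Those neighbours were accessible in 44.1%, 44.5% and 43.4% of cases in LSK and 45.4% and 44.5% in DN1. At DN2 the share was 41.98% and 40.3% in DN2a and 41.6% and 41.1% in DN2b, and in IgG it was 38.4%, 37.2% and 38.5%. Over all DHSs the range was 41.8% to 47.8%, and the neighbours of the sites were a few points lower in DN2 and IgG than in LSK, where the sites themselves were absent by the rule. Neighbours of LSK-only DHSs went the same way, from 45.5% to 46.4% in LSK to 39.6% to 41.5% in DN2.

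Promoters of the nearest genes were compared in the same libraries. The 300 sites outside promoters had 292 nearest genes. Of those, 55.5%, 55.1% and 54.5% had a kept promoter peak in LSK, 52.4% and 54.8% in DN1, 51.7% and 53.8% in DN2a, 54.5% and 54.1% in DN2b, and 49.7%, 46.2% and 49.7% in IgG. LSK and DN2b thus differed by less than the DN1 replicates did. Over all 21755 genes the share ran from 40.9% to 46.1%. Promoters of 129 genes (44.2%) were accessible in all LSK, DN1 and DN2 libraries, against 38.1% of all genes, and those of 109 (37.3%) in no library, against 47.0%. A single gene, Tlr4, picked after its values were seen, had a promoter with a kept peak in every LSK and DN1 library and no DN2 library, and it had one in all IgG libraries too. That 1 of 292 (0.342%) is close to the share over all genes, 53 of 21755 (0.244%). With the further genes of promoter sites included, whose own peaks the rule had set, so that the order of these means is partly a restatement of the choice, LSK had a share of 57.4% ± 0.496 (SD, n = 3), DN1 of 56.0% ± 1.61 and DN2a of 51.9% ± 1.38 (SD, n = 2 each). It was 53.1% ± 0.230 for DN2b (SD, n = 2) and 47.4% ± 1.98 for IgG (SD, n = 3).

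**Figure D4:**
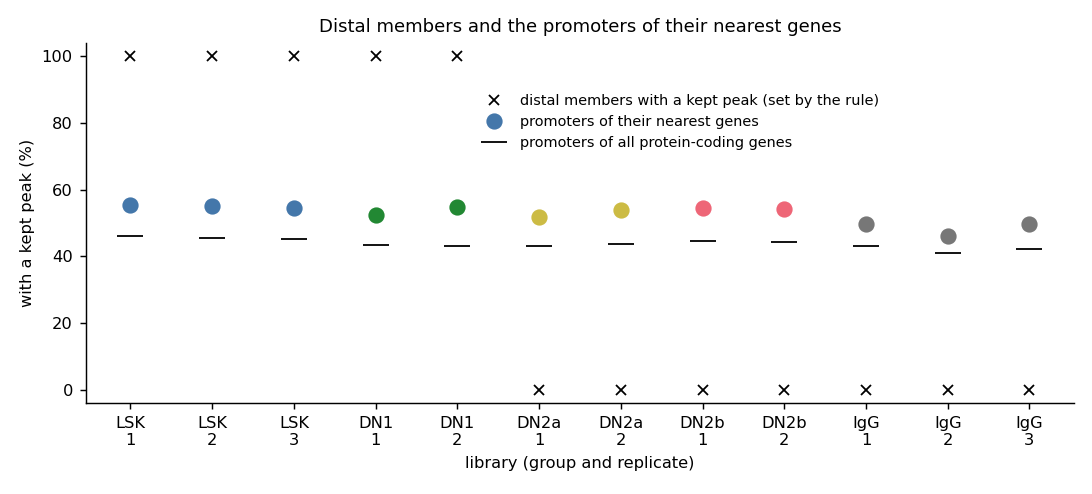
Share with a kept peak in each library (y axis, percent) for the 300 sites outside promoters (crosses, 100% or 0% by the rule), for promoters of their 292 nearest genes (circles) and for promoters of all 21755 protein-coding genes (dashes). The circles lie between 46.2% and 55.5%.

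PU.1 letters were frequent in the sites. Sequence was not part of the rule, and 21 short motifs were searched on both strands of the central 150 bases. GAGGAAG was present in 92 of 317 (29.0%, 24.3% to 34.2%), against 15.5% of all DHSs, 15.4% of LSK-only DHSs, 18.1% of those shared by LSK and IgG and 17.2% of those shared by LSK and all Delta1 libraries. In DHSs of LSK, DN1 and IgG absent from DN2 the share was higher, at 39.3% (34.3% to 44.6%). In those of LSK, DN1 and DN2a absent from DN2b and IgG it was 22.2% (16.4% to 29.4%). Outside promoters the share of the 317 was 29.7% (24.8% to 35.1%), against 20.7% (19.9% to 21.5%) of the other DHSs of all LSK and DN1 libraries. The more general ETS letters, CGGAAGT or AGGAAGT, of which the second overlaps the PU.1 letters, were in 26.5% (21.9% to 31.6%), against 18.8% of all DHSs and 24.6% of those shared by LSK and IgG. Outside promoters they were in 27.3% (22.6% to 32.6%), against 23.0% of the other DHSs of all LSK and DN1 libraries, which lies within that interval. Either was in 135 sites (42.6%), against 26.5%. Sites are not replicates, and no test was made over them.

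GATA letters were in 40 sites (12.6%, 9.40% to 16.7%), against 6.81% of all DHSs. The share was 13.7% in LSK-only DHSs, 11.6% in those shared with all Delta1 libraries and 4.68% in those shared with IgG, and of these sets the last alone had an interval (2.90% to 7.46%) below that of the sites. Outside promoters GATA letters were in 12.3% of the sites (9.08% to 16.5%), against 6.60% of the other DHSs of all LSK and DN1 libraries. RUNX letters were in 102 (32.2%, 27.3% to 37.5%), against 26.7% of all DHSs, between 22.7% in LSK-only DHSs and 41.98% in those shared with all Delta1 libraries. RUNX factors act in stem cells as in T cells, and outside promoters their letters were in 33.7% of the sites and 31.7% of the other DHSs of all LSK and DN1 libraries. Letters of HOX with PBX were in 14 (4.42%, 2.65% to 7.28%), against 1.496% of all DHSs, 5% of LSK-only DHSs and 0.865% of those kept in all Delta1 libraries. Outside promoters they were in 4.67%, against 1.23% of the other DHSs of all LSK and DN1 libraries. Among the 20 sites of highest percentile, 8 held the PU.1 letters, 6 those of HOX with PBX, 4 those of GATA and 2 those of RUNX.

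The letters were also counted in both sets nearest in pattern, the first differing from the 317 by its presence in IgG and the other by its presence in DN2a. In the 341 DHSs of LSK, DN1 and IgG that were absent from DN2, PU.1 letters were in 39.3% (34.3% to 44.6%), GATA letters in 3.81% (2.24% to 6.41%) and letters of HOX with PBX in 3.52% (2.02% to 6.05%), close to the share in the 317. In the 153 DHSs of LSK, DN1 and DN2a that were absent from DN2b and IgG, PU.1 letters were in 22.2% (16.4% to 29.4%), GATA letters in 21.6% (15.8% to 28.7%) and letters of HOX with PBX in 0 (up to 2.45%). The 317 stood between those sets for PU.1 and GATA, with intervals that overlap those of the 153 for both. ETS letters were in 38.4% of the 341 and 29.4% of the 153, both above the 26.5% of the 317, and RUNX letters in 23.5% and 31.4%, both below the 32.2% of the 317. PU.1 and GATA letters occurred together in 12 sites (3.79%), against 1.04% of all DHSs. PU.1 with RUNX was in 29 (9.15%), against 4.10% of all DHSs and 6.99% of those shared by LSK and all Delta1 libraries. GATA with RUNX was in 13 (4.10%), against 2.17% of all DHSs and 4.79% of those shared by LSK and all Delta1 libraries. Any of PU.1, RUNX, GATA or HOX with PBX was in 191 sites (60.3%), against 42.9% of all DHSs and 57.8% of those shared by LSK and all Delta1 libraries.

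**Figure D5:**
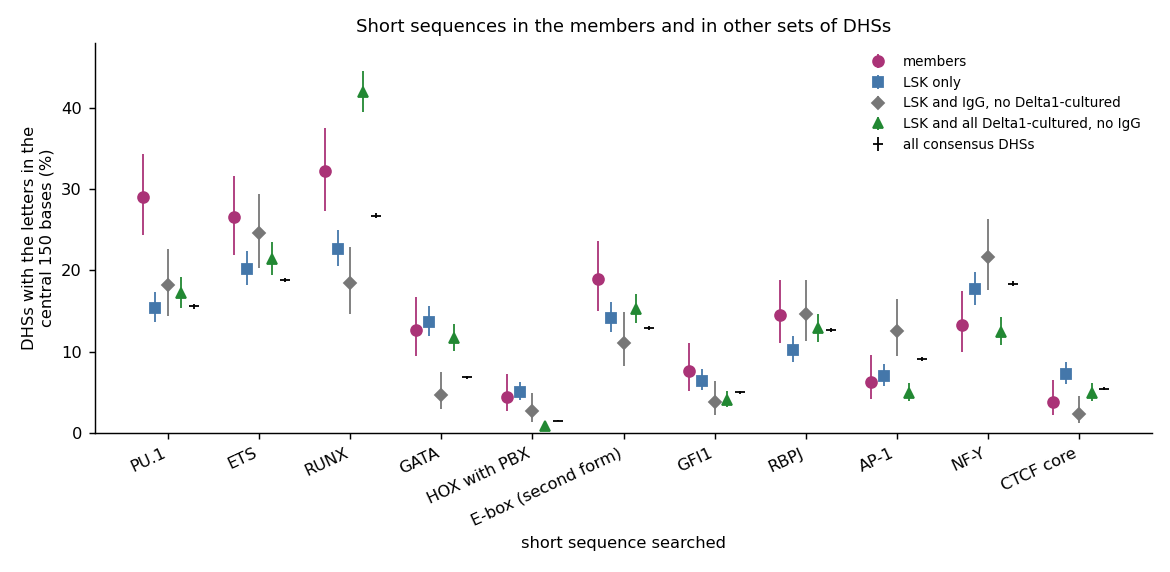
Share of DHSs with each short sequence in the central 150 bases (y axis, percent, 95% Wilson intervals) in the 317 sites, 3 other sets defined by the same libraries and all 76883 DHSs. The second form of E-box is CAGATG, and PU.1 letters stand at 29.0% in the 317 sites and between 15.4% and 18.1% in the other sets drawn. Both sets nearest in pattern, with PU.1 letters in 39.3% and 22.2%, are not drawn.

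Of the other motifs, the E-box CAGATG, bound by partners of GATA factors such as SCL, was in 18.9% (15.0% to 23.6%), against 12.9%, and the other E-box CAGCTG in 13.6%, against 12%. AAATCNC for GFI1, a repressor of stem and myeloid cells, was in 7.57%, against 4.97%. CCAAT for NF-Y was in 13.2% (9.95% to 17.4%), against 18.4%, or in 13.3% against 16.4% outside promoters, and TGANTCA for AP-1 in 6.31%, against 9.09% of all DHSs and 12.6% of those shared with IgG. TGGGAA for RBPJ, the DNA-binding partner of Notch, was in 14.5% (11.1% to 18.8%), against 12.6%. The intervals for RBPJ, AP-1, CAGCTG and CRE included the share over all DHSs, as they did for 9 further searches. These were TGACAG for MEIS (13.9%, against 12.8%), AACTGNC for MYB (9.15%, against 8.58%), CTTTGAA for TCF1 (2.21%, against 3.14%) and TTGCNNCAA for C/EBP (1.89%, against 1.36%), with TTCNNNGAA for STAT (4.10%, against 4.57%), GGGTGTGG for KLF (2.52%, against 1.99%), the core of the CTCF site (3.79%, against 5.45%), and the pairs of GAAA, or of GGAA and GAAA, 2 bases apart for IRF (2.84%, against 2.78%) and ETS with IRF (3.47%, against 2.30%). TGACGTCA for CRE was in 0.315%, against 0.926%. A match is a run of letters, and binding was not measured.

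Sites without any DN2 peak and the rest carried PU.1 letters in 17 of 61 (27.9%) and 75 of 256 (29.3%). GATA letters were in 18.03% and 11.3%, MEIS letters in 23.0% and 11.7%, and RUNX letters in 27.9% and 33.2%. No test was made of these shares.

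Named by nearest gene, sites just inside the limit were Gm5737 at rank 32943 and Mesd at 32928 in LSK replicate 1. Apeh was at 32938 in LSK replicate 2. Just outside, named likewise, were Pde4b at 32966 in LSK replicate 3, and Clip2 at 33010 and Nxpe5 at 33015 in DN1 replicate 1. Among regions absent from every DN2 and IgG library, 462 missed a single LSK or DN1 library. Of these, 365 had a deposited peak there below the limit. Of the 926 DHSs in all LSK and DN1 libraries and no DN2 library, 317 were in no IgG library, 151 in 1, 117 in 2 and 341 in all 3.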

How the data were processed

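According to the study's methods, the authors aligned paired-end reads of 12 DNase-seq libraries to mm10 with bwa (0.7.12 in the submitters' processing notes) and called peaks with hotspot2 at an FDR of 0.05. The deposited lists are 1 per library. The deposited score of each 150 bp peak is a whole number up to 150 with no stated meaning, so it served only to rank peaks within a list. Percentiles are mid-ranks in the deposited list on chromosomes 1 to 19 and X. Lists give no read totals, so depth is unknown, and Wilson intervals cover counting error only. Gene starts were those of GENCODE M21 (21755 protein-coding genes), sequence was GRCm38, and computing used Python 3.11.15 with numpy 2.4.6, pandas 2.3.3 and scipy 1.17.1. Merging, ranking and motif search were tested on simulated data. Groups came from the labels, and replicate numbers follow deposition order.

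Members, gene lists and motifs were chosen with earlier results of these data known. Named sites were the 20 highest by median percentile over LSK and DN1, up to 10 promoters, up to 5 per gene list, genes nearest to 3 or more sites, and the 3 nearest to the limit on each side. Chromosomes Y and M were left out. Alternatives covered list length, ties, merging, promoter window, motif window and single libraries.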

Additional observations from a re-analysis of the deposited data

How the results depend on the processing

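List length changed which sites were found. All deposited peaks gave 686, of which 58 of the 317 were shared, and the 20000 highest gave 194, sharing 43. The upper 50% gave 416 (179 shared) and the 25000 highest 240 (108 shared). Allowing 1 DN2 and 1 IgG peak gave 778, and requiring absence from the 53869 highest DN2 peaks, added after the data were seen, gave 100. Leaving out each library gave 334 to 487, the last without DN1 replicate 2. The promoter share was 3.15% within 500 bp and otherwise 3.79% to 8.20%, with 4.72% to 6.78% when each library was left out. Within kept peaks the median percentile was 45.8 in LSK and 33.5 in DN1, and leaving out each library gave 66.9 to 70.2 and 69.5 to 76.5. Sites with a lower-ranked DN2 peak numbered 217 to 256, and with an IgG one 10 to 29, the 10 without IgG replicate 3.

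Whole merged regions held RUNX letters in 37.9% and MEIS letters in 18.3%. The other 40 of 42 motif alternatives stayed within their intervals. Shares of all 308 nearest genes, those of promoter sites (set by the rule) included, with an open promoter at 500 bp and 2.5 kb were 52.6% and 61.6% in LSK, 51.1% and 60.9% in DN1, 48.4% and 54.5% in DN2a, 50% and 55.7% in DN2b, and 44.7% and 50.1% in IgG. No paired analysis was possible because the labels give no replicate numbers and no test was made. Unknown depth limits every absence, and short lists limit absence from IgG.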
